A study of Mus musculus with 16 samples.

Results

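Cytosolic ribosomal proteins are the protein subunits of the ribosome that works in the cytoplasm, 1 gene set for the large subunit (Rpl) and 1 for the small subunit (Rps). The genes were taken by name from a mouse liver RNA-sequencing table: a symbol of Rpl or Rps that is completed by a number with at most 1 letter, by the letter a, or by the stalk protein endings, with a protein-coding transcript type and without the ribosomal protein S6 kinases. Of the 55401 genes in the table, 83 matched by name and 80 were kept, 49 of the large and 31 of the small subunit. The other 3 names, Rps4l, Rpl6l and Rpl32l, carry no protein-coding transcript type. Among the 80 genes, 10 are annotated as protein-coding alone, and 70 list protein-coding beside further transcript types.

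The livers came from mice of 4 groups with 4 libraries each, 16 in all: negative control mice, negative control mice given BBR, AKR1B10 knockdown mice, and AKR1B10 knockdown mice given BBR. BBR is read here as berberine, the plant alkaloid of the series' title, which also names fatty liver disease. The short descriptions of all 16 libraries begin with AAV, the usual abbreviation of the adeno-associated viral vector, so negative controls appear to carry a vector too. The promoter and target sequence of that vector, the strain, sex, age and diet of the mice, and the dose and duration of BBR are not given in the sources used here. Nothing in the labels says whether each library is a separate animal, so p-values measure the spread between these libraries.

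A ribosome translates messenger RNA into protein, and every growing cell spends much of its transcription and translation on making ribosomes. Most ribosomal protein messenger RNAs start with a run of pyrimidines, the 5′ terminal oligopyrimidine or TOP motif, through which the kinase complex mTORC1 controls how strongly they are translated, largely without a change in their amount. In the liver, hepatocytes use these ribosomes to make the plasma proteins. Proteins that are not built into a ribosome are degraded, and messenger RNA levels therefore need not match the amounts of the proteins.

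The libraries held 46273129 to 66235443 counts. Akr1b10, the gene named as the target, was listed at 0.177 to 0.505 FPKM in the untreated negative controls and at 0.351 to 0.859 FPKM in the untreated knockdown libraries, so its transcript was not lower under that label, and the groups are called labelled knockdown here. In knockdown library 4, 35.4% of all counts came from genes of the mitochondrial genome, against 10.98 to 15.9% in the other 15 libraries. Knockdown library 3 had the highest summed level of neutrophil markers, 325 FPKM against 0.397 to 20.9 FPKM in the others, although the neutrophil markers Ly6g and Mmp8 averaged under 0.1 FPKM in every group. Summed hepatocyte markers were at 35391 to 43636 FPKM in all but knockdown library 4, where they were at 21170.2 FPKM. In a bulk liver library, fewer cells of a type and less RNA per cell cannot be told apart.

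Between genes, levels are compared as FPKM, fragment counts scaled to the length of the gene and the depth of the library. In the large subunit the highest means over the 16 libraries were those of Rplp1 at 747, Rpl36 at 564 and Rpl19 at 255 FPKM. The lowest of the tested large subunit genes were Rpl21 at 20.2, Rpl34 at 25.2 and Rpl30 at 27.1 FPKM. In the small subunit Rps15 at 445, Rps29 at 284 and Rps2 at 214 FPKM led, and Rps15a at 10.4, Rps24 at 25.5 and Rps19 at 27.0 FPKM were lowest. Each ribosome holds 1 copy of nearly all of these proteins, so this order is one of messenger RNA per length as counted, not of protein. It also depends on the length used. The FPKM values fit the summed exons of all annotated transcripts of a gene, which were 1.00 to 9.80 times as long as its shortest principal transcript (median 2.35), and with that transcript as the length the order of the 77 tested genes had a Spearman correlation of 0.78 with the FPKM order.

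Several genes exist beside a close copy, and the liver expressed the copies unequally. Rps27l, a copy of Rps27 that p53 is known to induce in human cells, averaged 212 FPKM against 139 FPKM for Rps27. Rpl36al stood at 104 FPKM against 46.5 FPKM for Rpl36a. The order was the other way for Rpl22l1 at 11.1 FPKM beside Rpl22 at 28.4 FPKM, for Rpl7l1 at 12.01 beside Rpl7 at 71.2 FPKM, and for Rps4l at 19.3 beside the X-linked Rps4x at 73.3 FPKM. Tissue-restricted copies were near or at 0: Rpl3l, the copy of striated muscle, had 0 to 210 counts per library with 6 libraries at 0, Rpl39l had counts in 1 library only, 15 in all, and Rpl10l, the copy of the male germ line, had 0 counts in all 16. These 3 genes did not pass the filter of 1 FPKM in at least 4 libraries, which left 77 genes to test, 46 of the large and 31 of the small subunit.

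Ribosomal protein genes have many processed pseudogenes, and reads can fit both. The table holds 316 pseudogenes named after these genes, with 9.78 to 12.1 counts per 100 counts of the genes themselves. Of the 80 genes, 67 share at least 1 exact stretch of 150 bases with a transcript of another gene, and for 13 this holds for at least 20% of all such stretches. The share was 39.98% for Rpl17, 27.8% for Rpl36, 21.8% for Rpl7a, 18.1% for Rpl27, 12.9% for Rpl35, 0.0691% for Rpl41, and 0% for Rps15 and Rps27l. Rpl17 had 300.3 pseudogene counts per 100 counts of its own and Rpl7a had 208, so the levels of these genes are uncertain where the counting could split such reads.

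The start sites of these genes were read from RefSeq promoters of build GRCm38.p6, which held 60 of the 80 genes. A run of at least 7 pyrimidines that touches the bases from -5 to 10 around a start was present for 51.7% of the 60 genes, 51.4% in the large and 52.2% in the small subunit, and for 19.4% of all 27025 genes of the RefSeq promoter table. A start base C followed by 4 pyrimidines, the strict form of a TOP start, was present for 21.7% against 3.01%. A gene with several listed starts was counted if any of them had the feature. Of such a gene, the start with the longest pyrimidine run is the one shown. The starts of genes that lead the comparisons reported further on, or that lie at their low end, are shown, 40 bases before and 20 from the start base on, with the longest pyrimidine run that touches the window in capitals; Rpl17 is not shown.
Rpl35 (chr2:39005112-39005171, minus strand): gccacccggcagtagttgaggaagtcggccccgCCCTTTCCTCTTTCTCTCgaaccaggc
Rpl13a (chr7:45128726-45128785, minus strand): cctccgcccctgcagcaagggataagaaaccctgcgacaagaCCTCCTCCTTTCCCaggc
Rpl4 (chr9:64173347-64173406, plus strand): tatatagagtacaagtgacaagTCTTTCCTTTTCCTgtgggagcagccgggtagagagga
Rps27 (chr3:90213629-90213688, minus strand): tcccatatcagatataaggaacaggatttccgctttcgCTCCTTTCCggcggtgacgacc
Rps27l (chr9:66946046-66946105, plus strand): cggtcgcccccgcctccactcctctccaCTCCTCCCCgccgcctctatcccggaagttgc
Rpl27 (chr11:101442205-101442264, plus strand): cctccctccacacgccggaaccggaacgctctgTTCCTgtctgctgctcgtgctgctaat
Rpl41 (chr10:128549149-128549208, minus strand): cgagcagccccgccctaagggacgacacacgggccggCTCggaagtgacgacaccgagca

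In the whole promoter window of 300 bases, on both strands, the ETS-family motif of GABPA (CCGGAAG) was present for 41.7% of the 60 genes and 9.93% of all genes. The YY1 motif (AAGATGG) was present for 15.0% against 7.28%, and the SP1 motif (GGGCGG) for 60.0% against 38.2%. A TATA box (TATAAA) was present for 6 of the 60 genes against 15.7% of all, and the E-box of MYC (CACGTG) for 6 of the 60 against 8.09%. These shares describe letters in the promoters, and no overlap between motifs was removed.

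Together the 80 genes took 1.40 ± 0.0997% of all counts in negative controls (mean ± SD, n = 4), 1.45 ± 0.152% in negative controls with BBR, 1.495 ± 0.435% in libraries labelled knockdown and 1.44 ± 0.102% in those labelled knockdown with BBR. By library, the share was 1.36, 1.34, 1.34 and 1.55% in negative controls and 1.48, 1.59, 1.51 and 1.24% in negative controls with BBR. Under the knockdown label it was 1.68, 1.41, 1.96 and 0.934% without BBR and 1.46, 1.38, 1.34 and 1.57% with BBR. All 4 groups overlapped, and both the highest and the lowest of the 16 shares belonged to libraries labelled knockdown without BBR, numbers 3 and 4. Of the counts that are not mitochondrial, the genes took 1.42 to 2.20%. Knockdown library 4, at 1.45%, was above only negative control with BBR 4, at 1.42%, and below the negative controls, at 1.51 to 1.77%.

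The subunits kept close to one proportion. Large subunit genes took 0.822 ± 0.0576, 0.864 ± 0.0851, 0.879 ± 0.240 and 0.847 ± 0.0446% of counts in the 4 groups in the order above, and small subunit genes took 0.576 ± 0.0427, 0.590 ± 0.0673, 0.616 ± 0.195 and 0.591 ± 0.0573%. The summed FPKM of large over small subunit genes was between 1.48 and 1.64 in 15 libraries and 1.84 in knockdown library 4.

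**Figure D1:**
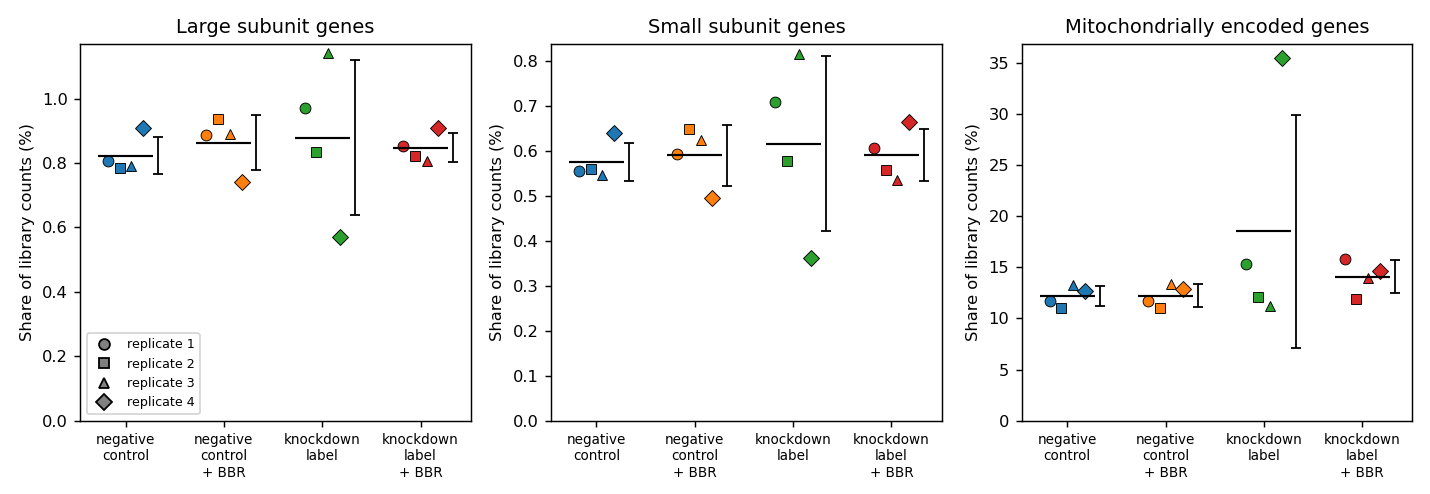
Share of all counts (percent, vertical axes) taken by large subunit genes, small subunit genes and mitochondrially encoded genes in the 4 groups; points are single libraries, bars the mean of 4 libraries and error bars 1 SD. In the group labelled knockdown without BBR, library 3 is highest and library 4 lowest for both subunits, and library 4 is far above all others, at 35.4%, in the mitochondrial panel.

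The first question is whether the knockdown label alone goes with a difference in these genes. Large subunit genes were fitted higher in libraries labelled knockdown for 32 of 46 genes with a median log2 difference of 0.15, and small subunit genes for 26 of 31 with a median of 0.19, against a median of 0.02 over all 10846 genes tested. With the edgeR quasi-likelihood F test and Benjamini-Hochberg adjustment, no gene passed an adjusted p of 0.05, among these 77 or among all genes (0.0%), while 14.8% of all genes had an unadjusted p under 0.05. By DESeq2, 2 of the 77 genes, Rpl35 and Rpl27, and 105 of all genes passed (0.968%), and without knockdown library 2 the edgeR fit called 6 of the 77 and 5.74% of all genes. At an unadjusted p under 0.05, 13 of the 77 genes (16.9%) were higher, where 8.33% of all genes were, and none was lower, where 6.45% of all genes were. Of these 13, 12 code for large subunit proteins (26.1% of 46) and 1, Rps15, for a small subunit protein (3.23% of 31), a contrast between the subunits that was not tested. It depended on the setting: the large and small subunit counts were 13 and 12 without knockdown library 4 (all genes 5.52%). They were 18 and 14 with library quality weights in limma voom (all genes 10.1%), but 7 and 0 without knockdown library 3 (all genes 8.06%). The medians depend on the scaling, since on log2(FPKM + 1) by limma they were -0.02 and 0.04, where the median of all genes was -0.08.

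Rpl35, a protein at the mouth of the tunnel through which the new peptide leaves, had the smallest p of the members (chr2:39001580-39005624, minus strand, mm10). It was at 116, 117, 126 and 148 FPKM in negative controls and 220.5, 140.2, 236 and 173 FPKM in libraries labelled knockdown. Knockdown libraries 1 and 3 lay well above all controls, and library 2 lay just below the highest control. Its fitted log2 difference was 0.71 (95% interval 0.32 to 1.09) with 4 libraries per group, and the edgeR quasi-likelihood p was 0.00146 before and 0.267 after Benjamini-Hochberg adjustment. Without one library at a time it stayed between 0.65 and 0.85.

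Rpl27, a large subunit protein whose gene is mutated in some human Diamond-Blackfan anaemia families (chr11:101442298-101445529, plus strand), was at 105, 108, 96.5 and 127 FPKM in negative controls. The libraries labelled knockdown had 165, 115, 166 and 123 FPKM, again with numbers 1 and 3 on top and the other 2 within the range of the controls in FPKM. FPKM is scaled to length and depth, while the fit also applies a factor per library, lowest at 0.775 in knockdown library 4. In log2 CPM with these factors, Rpl27 was 0.46 above its mean over 16 libraries in knockdown library 3 and 0.39 in library 4. The log2 difference was 0.49 (0.20 to 0.78), and the edgeR quasi-likelihood adjusted p with Benjamini-Hochberg adjustment was 0.267. Rpl36 (chr17:56613416-56614243, plus strand), among the most abundant of these messenger RNAs, was at 455, 481, 470.1 and 618 FPKM in negative controls, and the 4 libraries labelled knockdown had 759, 471, 1026 and 686 FPKM. Library 3 was highest of all 16, and library 2 lay within the range of the controls. The fit gave 0.65 (0.18 to 1.12). Rpl17, which lines the peptide tunnel, was at 25.2, 48.2, 29.5 and 40.2 FPKM in negative controls and 90.4, 47.7, 79.2 and 45.4 FPKM in libraries labelled knockdown, a log2 difference of 0.98 (0.36 to 1.59). The groups overlap in FPKM only through the negative control at 48.2 FPKM, and with the counts of its pseudogenes added the difference was 0.64.

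Further large subunit genes at an unadjusted p under 0.05 included Rpl35a, fitted higher by 0.41, Rpl19 by 0.50 and Rpl21 by 0.88 on the log2 scale. Among them was also Rpl13a, known in human myeloid cells for silencing inflammatory messenger RNAs when it leaves the ribosome, at 153, 148, 139.5 and 150.2 FPKM in negative controls and 209.6, 142, 329 and 117 FPKM under the knockdown label. Library 3 was the highest for Rpl13a. For Rpl21, knockdown library 4 was the highest of all 16 in log2 CPM, and it had 83.6 pseudogene counts per 100 counts of its own. In the small subunit, Rps15, which is needed for small subunit maturation in human cells, was at 393, 373, 379.9 and 471 FPKM in negative controls and 622, 387, 785 and 320.3 FPKM in libraries labelled knockdown. Its log2 difference of 0.47 (SE 0.20) was 0.28 without knockdown library 3. Next by p were Rps18 at 0.50 (SE 0.24), Rps27l at 0.38 (SE 0.18) and Rps27 at 0.48 (SE 0.24), the last 0.21 without library 3.

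**Figure D2:**
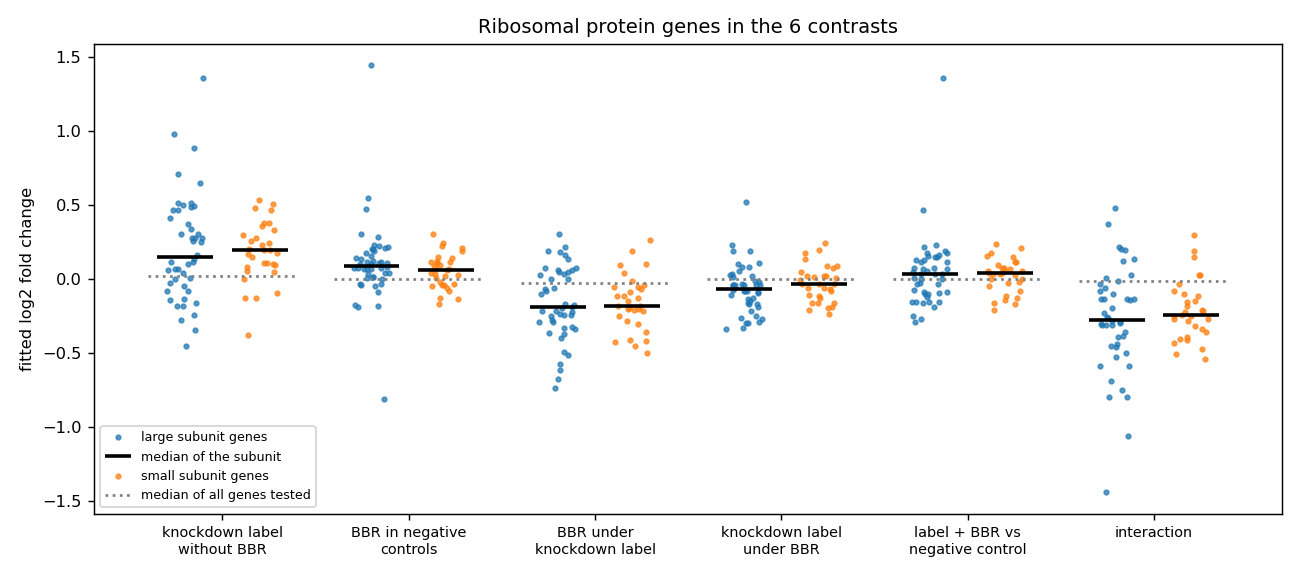
Fitted log2 fold change of each of the 77 tested genes (points, large and small subunit apart) in the 6 comparisons; the black line is the subunit's median and the dotted line the median of all genes tested. Medians lie at 0.15 and 0.19 for the knockdown label without BBR, at -0.19 and -0.18 for BBR in libraries labelled knockdown, and at -0.28 and -0.25 for the interaction.

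Genes named for their roles did not all lean the same way under the knockdown label. The stalk proteins, which recruit translation factors to the ribosome, were fitted at -0.25 (Rplp0, the base), -0.16 (Rplp1) and -0.05 (Rplp2). Of the pair that carries the 5S ribosomal RNA and can bind the p53 ubiquitin ligase Mdm2 when free, Rpl5 was at -0.13 and Rpl11 at 0.26. Rpl3, close to the peptidyl transferase centre, was at -0.28, and Rpl10, which joins late in large subunit assembly, at -0.09. Rpl38, which mouse embryos need for translating Hox messenger RNAs, was at 0.46 (SE 0.24), and Rpl22, which developing T cells need in mice, at 0.13. In the small subunit Rps6, the protein that S6 kinases phosphorylate, was at -0.13. Rps19, the gene most often mutated in human Diamond-Blackfan anaemia, was at 0.20, Rps14, lost in the human 5q- syndrome, at 0.15, and Rps27a, made as a fusion with ubiquitin, at 0.11. None of these had an unadjusted p under 0.05.

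Rpl4, which lines the peptide tunnel, was the lowest of all members under the knockdown label (chr9:64173375-64178666, plus strand). It was at 191, 177, 158 and 139 FPKM in negative controls and, under the knockdown label, at 117, 181, 132 and 33.1 FPKM, and library 4 alone was under 100 FPKM. The log2 difference was -0.46 (SE 0.32). Rps4x, the lowest of the small subunit, was at 87.2, 81.6, 78.7 and 74.0 FPKM in negative controls and 55.9, 89.2, 65.7 and 24.5 FPKM under the label, again with library 4 lowest, and was fitted at -0.38 (SE 0.24). In the RefSeq starts printed above, the pyrimidine run is 18 bases long at Rpl35, where it spans the start base. It is 5 at Rpl27 and 14 at Rpl4, where it ends before the RefSeq start base. The gene coordinates place the starts elsewhere: that of Rpl4, 64173375, lies inside the run. Those of Rpl27, 101442298, and of Rpl35, 39005624 on the minus strand, lie beyond the printed stretches. Where the run lies relative to the start therefore depends on the annotation. These are descriptions of single genes.

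In the same libraries 8 of the 9 tested markers of Kupffer cells and macrophages had an unadjusted p under 0.05 for the knockdown label, all higher, with a median log2 difference of 1.12. Summed over the 10 markers, they were at 52.96, 131, 52.3 and 76.9 FPKM in the 4 negative controls and reached 153, 113, 299 and 86.7 FPKM under the knockdown label, highest in library 3, which was also highest for the ribosomal protein share. Among the 4 untreated libraries labelled knockdown, the ribosomal protein shares of 1.68, 1.41, 1.96 and 0.934% had the same order as the marker sums. Across the groups the orders differed. The next highest marker sum, 181 FPKM, was in library 3 labelled knockdown with BBR, where the ribosomal protein share was 1.34%. Negative control 2, at 131 FPKM, had the same share of 1.34%. The part of these cells in the ribosomal protein values was not tested. Without knockdown library 3 the subunit medians were 0.10 and 0.06, and 7 of the 77 genes were higher at an unadjusted p under 0.05 (all genes 8.06%). Without library 4 the medians were 0.29 and 0.34 with 25 such genes (all genes 5.52%), without both there were 9 (all genes 1.56%) with medians of 0.19 and 0.21, and without negative control 2 there were 6 (all genes 5.79%). The large subunit median was 0.10 without knockdown library 1 and 0.23 without negative control 3 or 4. With library quality weights in limma voom there were 32 (all genes 10.1%), a setting that gives less weight to libraries far from their group. In log2 CPM, Rpl17, Rpl35 and Rps10 had groups that did not overlap, higher under the label (all genes 2.36%).

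Whether BBR goes with a difference in negative controls is the next comparison. Here 36 of 46 large and 21 of 31 small subunit genes were fitted higher, with medians of 0.09 and 0.06 (all genes -0.00). These medians rest on single libraries: without negative control with BBR 2 they were 0.01 and -0.03, without number 4 of that group 0.17 and 0.14, without negative control 2 0.05 and 0.02, and without negative control 4 0.18 and 0.09. No gene passed an adjusted p of 0.05 in the edgeR quasi-likelihood fit, among the members or all genes (0.0%), where 3.68% of all genes had an unadjusted p under 0.05 and DESeq2 called 3 of all genes (0.0277%) and none of these. At an unadjusted p under 0.05, none of the 77 was higher (all genes 1.74%) and 1, Rpl41, was lower (1.94%).

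Rpl41 codes for the shortest ribosomal protein, a single helix between the subunits (chr10:128548114-128549162, minus strand). It was at 179.5, 147, 181 and 186 FPKM in negative controls and 85.5, 82.6, 72.3 and 155 FPKM in those given BBR. The first 3 BBR libraries lay far below every control, and number 4 lay within the control range. Its log2 difference was -0.81 (-1.35 to -0.28), with an edgeR quasi-likelihood p of 0.999 after Benjamini-Hochberg adjustment. Without library 4 of the BBR group it was -1.08, and without other single libraries no closer to 0 than -0.69. The longest pyrimidine run near the RefSeq start of Rpl41 is 3 bases long and ends before the start base. It is 9 bases long at Rps27, where it spans the start base. At Rps27l it is also 9 but ends before the start base.

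In the groups labelled knockdown, Rpl41 was at 161, 197, 236 and 85.4 FPKM without and 127, 149, 128 and 179.7 FPKM with BBR, groups that overlap. The fitted log2 difference for BBR there was -0.34 (SE 0.25), and the difference between the BBR effects was 0.48 (SE 0.35), with an edgeR quasi-likelihood p of 0.197 before and 0.788 after Benjamini-Hochberg adjustment. Rpl39, another very short protein of the large subunit, did not share the pattern and was at 0.21 for BBR in negative controls. Next by p in the large subunit came Rpl17 at 0.54, Rpl11 at 0.30 and Rpl12, a neighbour of the stalk, at 0.28, where Rpl17 was 0.19 with its pseudogene counts added. In the small subunit Rps10 at 0.30, Rps13 at 0.24 and Rps16 at 0.22 were among the first. Rpl10 was the member whose groups did not overlap in log2 CPM, lower with BBR (all genes 2.07%), by a log2 difference of only -0.19.

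**Figure D3:**
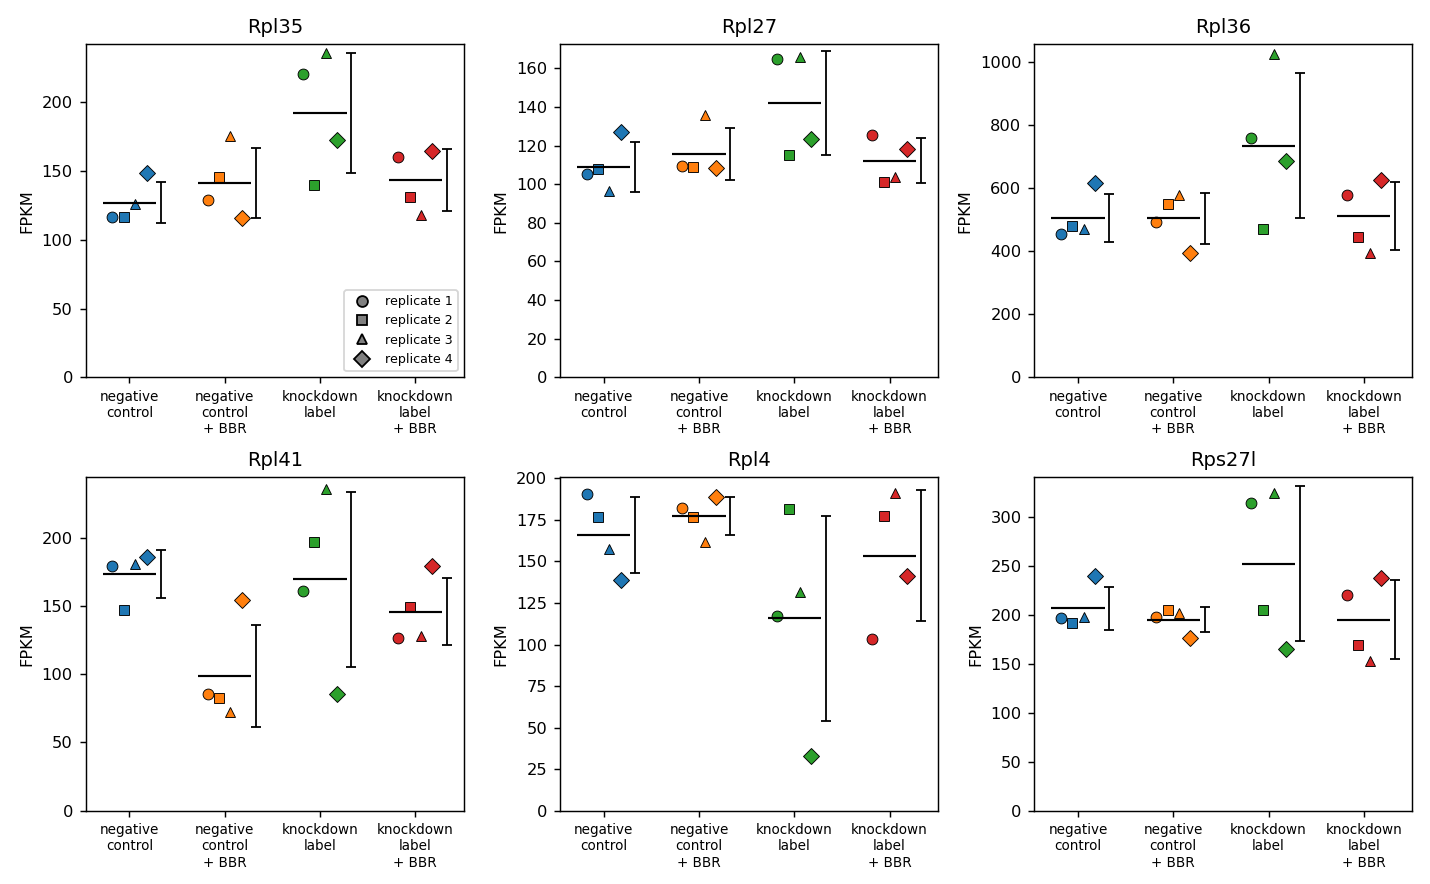
FPKM (vertical axes, starting at 0) of Rpl35, Rpl27, Rpl36, Rpl41, Rpl4 and Rps27l in the 4 groups; points are libraries, bars the mean of 4 and error bars 1 SD. For Rpl35, Rpl27, Rpl36 and Rps27l, 2 of the untreated libraries labelled knockdown stand above the rest, for Rpl41 3 of 4 negative controls with BBR are lower than every negative control, and for Rpl4 1 library labelled knockdown is at 33.1 FPKM. FPKM lacks the library factors of the fit. In log2 CPM with them, knockdown library 4 was 0.56, 0.39 and 0.66 above the gene's mean for Rpl35, Rpl27 and Rpl36, and 0.003 for Rps27l.

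The same treatment in the libraries labelled knockdown had medians on the other side of 0. With BBR, 31 of 46 large and 26 of 31 small subunit genes were fitted lower, with medians of -0.19 and -0.18 (all genes -0.03). None passed an adjusted p of 0.05 in the edgeR quasi-likelihood fit and neither did any other gene (0.0%), while 9.48% of all genes had an unadjusted p under 0.05 and DESeq2 called 55 of all genes (0.507%) and none of these. At an unadjusted p under 0.05, 7 of 77 were lower (9.09%, all genes 5.21%) and none was higher (all genes 4.27%). On log2(FPKM + 1) the medians were -0.02 and 0.01, where that of all genes was 0.11, so the sign for the small subunit depends on the scaling. This comparison and that of the knockdown label share the 4 libraries labelled knockdown without BBR, so opposite signs for a gene are not independent.

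Rpl27 was at 126, 101, 104 and 118 FPKM in libraries labelled knockdown with BBR, against the 165, 115, 166 and 123 FPKM without it. The log2 difference was -0.49 (-0.78 to -0.20), with an edgeR quasi-likelihood adjusted p of 0.396, and in log2 CPM the groups did not overlap, which also held for Rpl34 (all genes 1.71%). Rpl35 was at 160.3, 131, 118 and 164 FPKM with BBR, where 2 of 4 values lie within the range of the untreated libraries and 2 below it, and its log2 difference was -0.58 (SE 0.18). Rpl36, at 579, 447, 396 and 627 FPKM with BBR, was fitted at -0.68 (SE 0.22). Rpl13a was fitted at -0.61.

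Rps27l (chr9:66946086-66949516, plus strand) had the smallest p of the small subunit. It was at 314, 204, 324 and 165 FPKM in libraries labelled knockdown and at 220.0, 169, 153 and 237 FPKM with BBR. Libraries 1 and 3 without BBR are far above the rest and library 4 is below 3 of the 4 treated ones, so the groups overlap. Its log2 difference was -0.50 (SE 0.18), with a Benjamini-Hochberg adjusted p of 0.441 from the edgeR quasi-likelihood fit. Rps3, at the channel where the messenger RNA enters, was at 43.0, 44.6, 58.8 and 25.3 FPKM without and 41.9, 37.8, 31.0 and 35.9 FPKM with BBR, a log2 difference of -0.36. Next were Rpsa, also known as the laminin receptor, at -0.25 and Rps15 at -0.41. The 9 Kupffer cell and macrophage markers were all fitted lower with BBR, with a median of -0.57, and their part in these values was not tested. The small subunit median was -0.08 without knockdown library 1, -0.33 without library 4, and -0.11 without library 2 of the BBR group. Without knockdown library 3 the subunit medians were -0.09 and -0.04, with 4 genes lower at an unadjusted p under 0.05 (all genes 4.49%), without library 4 there were 23 (all genes 5.77%), without both 8 (all genes 2.44%), and with library quality weights 28 (all genes 7.22%).

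Between the BBR groups, the knockdown label went with 33 of 46 large and 18 of 31 small subunit genes fitted lower, with medians of -0.07 and -0.04 (all genes -0.01). Without negative control with BBR 2 these were -0.00 and 0.06, and without number 4 of that group -0.14 and -0.11. Of the libraries labelled knockdown with BBR, leaving out number 2 gave -0.03 and 0.04, number 3 -0.06 and 0.00, number 4 -0.13 and -0.11, and number 1 -0.08 and -0.02. No gene had an adjusted p under 0.05 in the edgeR quasi-likelihood fit (0.0% of all genes), DESeq2 called 5 of all genes (0.0461%) and none of these, and none of the 77 had an unadjusted p under 0.05, where 4.57% of all genes did. Rpl41 was nearest, at 0.52 (SE 0.25). Rplp0 was at 208, 219, 178 and 176 FPKM in negative controls with BBR and 144, 172, 170.1 and 162 FPKM in libraries labelled knockdown with BBR. It was the member whose groups did not overlap in log2 CPM (all genes 2.27%), with a log2 difference of -0.33 (SE 0.21). Rpl30 was at -0.34, Rpl11 at -0.27, Rps2 at -0.24 and Rpsa at -0.20.

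Libraries with both the knockdown label and BBR were compared with untreated negative controls last of the pairs. The subunit medians were 0.03 and 0.04 (all genes -0.00), with 25 of 46 large and 19 of 31 small subunit genes fitted higher. Without single libraries of the groups compared the medians ran from -0.04 to 0.07 and from -0.05 to 0.08, lowest without library 4 of the treated group and highest without negative control 4, so their sign is not settled. None passed an adjusted p of 0.05 in the edgeR quasi-likelihood fit (0.0% of all genes), DESeq2 called 9 of all genes (0.083%) and none of these, and none of the 77 had an unadjusted p under 0.05, where 5.64% of all genes did. Rpl17 was at 0.46 (SE 0.29), which was 0.07 with pseudogene counts added, Rpl41 at -0.30, Rpl9 at -0.25, Rpl23a at 0.23 and Rps2 at -0.21. Rpl9 was the member whose groups did not overlap in log2 CPM, lower in the treated group (all genes 4.1%).

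The interaction asks whether the BBR difference itself differed between the labels. It was fitted below 0 for 37 of 46 large and 26 of 31 small subunit genes, with medians of -0.28 and -0.25 (all genes -0.01). On log2(FPKM + 1) those medians were -0.08 and -0.02, where that of all genes was 0.14. No gene passed an adjusted p of 0.05 in the edgeR quasi-likelihood fit (0.0% of all genes), 6.56% of all genes had an unadjusted p under 0.05, and DESeq2 called 10 of all genes (0.0922%) and none of these. At an unadjusted p under 0.05, 6 of 77 were below 0 (7.79%, all genes 3.84%) and none above (2.71%). They were Rpl27 at -0.59 (SE 0.19), Rpl35 at -0.75 (SE 0.26), Rpl17 at -1.06, Rpl13a at -0.80, Rpl36 at -0.69 and Rpsa at -0.36 (SE 0.17). The 9 Kupffer cell and macrophage markers were also all below 0, with a median of -1.14, and their part was not tested. The small subunit median was -0.14 without library 3 of the untreated knockdown label, -0.41 without library 4 and -0.15 without negative control with BBR 2. Without library 4 of the untreated knockdown label there were 16 such genes (all genes 4.6%), without library 3 there were 3 (all genes 3.03%), without both 7 (all genes 2.15%), and with library quality weights 28 (all genes 5.48%).

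Single libraries lay at both ends of this pattern. Knockdown library 3 was the highest of all 16 in log2 CPM for 36 of the 77 genes and above the gene's own mean for 72, with median deviations of 0.39 in the large and 0.46 in the small subunit. Knockdown library 4 was the lowest for 38 genes and below the mean for 57, with median deviations of -0.21 and -0.35. The same 2 libraries stood at the ends in FPKM, where library 3 was highest for 43 genes and library 4 lowest for 53. Negative control with BBR 2 was highest for 15 genes and number 4 of that group lowest for 14, so spread of this kind also occurred without the knockdown label.

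Within library 4 the genes did not move as one block. Rpl15 deviated by -1.83 and Rps28 by -1.07 on the log2 scale, while Rpl21 was at 1.58, Rpl38 at 0.78 and Rpl36 at 0.66 above their means. In library 3, Rps27 was 1.02 and Rps28 0.82 above its mean. The deviation in library 4 had a correlation across the 77 genes of -0.23 with the log2 length of the shortest principal transcript, a description of genes that share this library. The mitochondrial share and hepatocyte markers of library 4 and the neutrophil and macrophage markers of library 3, given above, moved with these deviations, and their part was not tested.

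**Figure D4:**
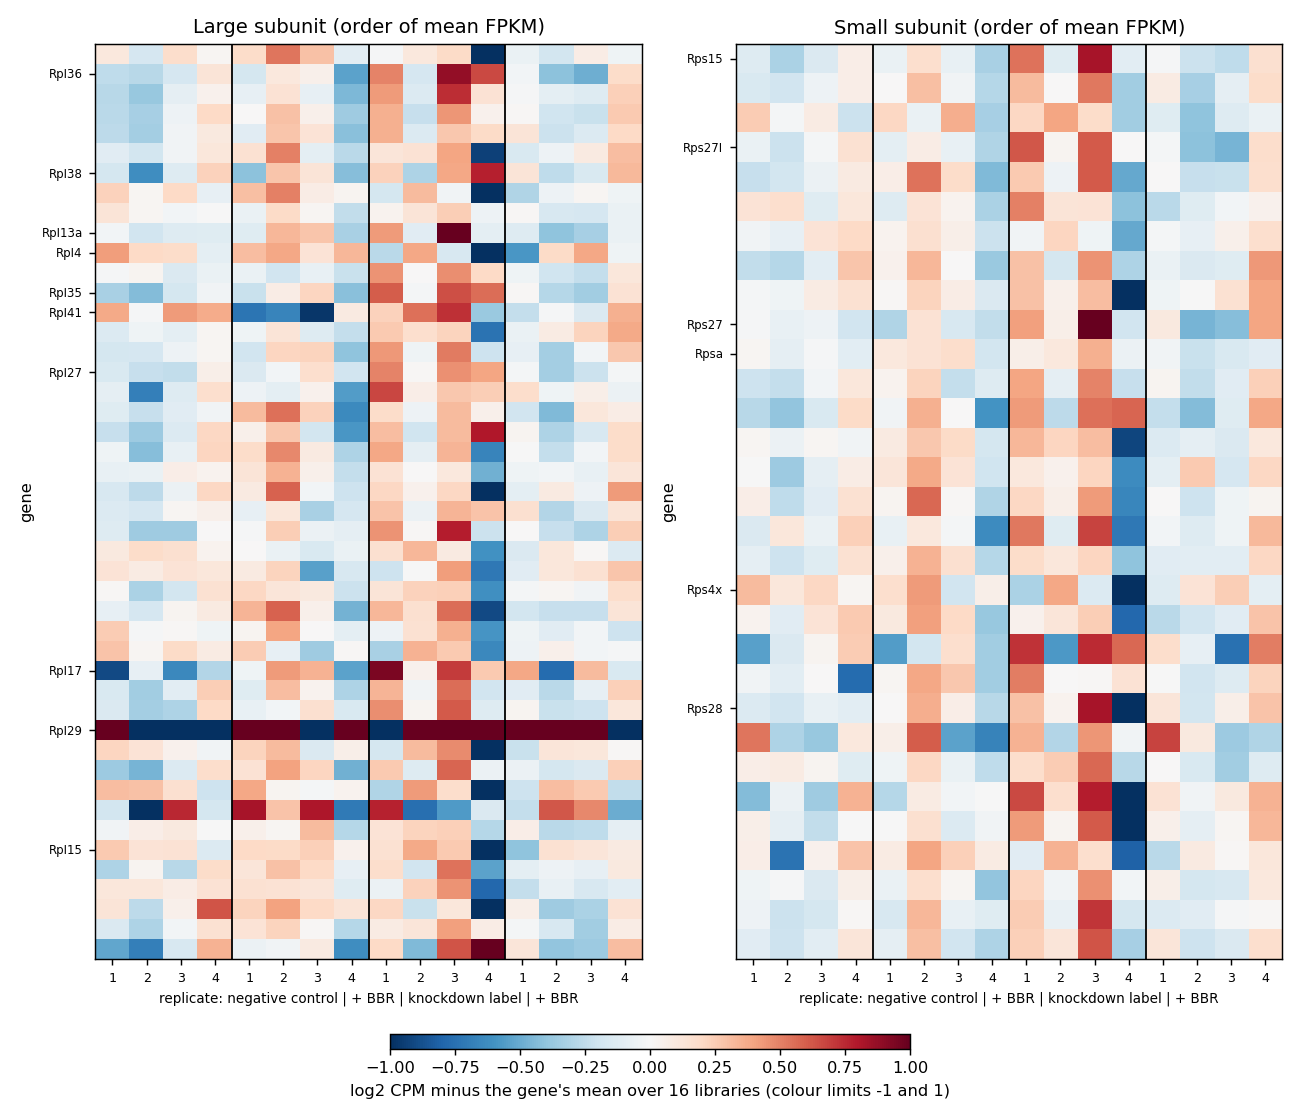
Deviation of log2 CPM from the gene's mean over 16 libraries (colour, limited to -1 to 1) for the 77 tested genes (rows in order of mean FPKM, large subunit in the left and small subunit in the right panel, some of them named) in each library (columns, by group). Knockdown library 3 is mostly above and knockdown library 4 mostly below the mean, while Rpl29 alternates between the colour limits.

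Rpl29, a heparin-binding protein of the large subunit, was unlike every other member (chr9:106429454-106431568, plus strand). In negative controls it was at 73.5, 3.56, 1.08 and 1.34 FPKM and with BBR at 70.2, 73.0, 0.940 and 73.2 FPKM. Under the knockdown label it was at 1.905, 68.5, 72.6 and 48.7 FPKM and with BBR at 76.1, 56.2, 82.7 and 1.26 FPKM. It was thus under 4 FPKM in 6 libraries and over 40 FPKM in 10, and both levels occurred in every group. The SD of its log2 CPM over the 16 libraries was 2.78, with the next largest at 0.66 for Rpl7a and 0.57 for Rpl21. Its fitted log2 difference for the knockdown label was 1.36 with an SE of 1.44, so no comparison of groups is resolved for it. Of its stretches of 150 bases, 13.3% are shared with transcripts of other genes, 10 in number. Leaving Rpl29 out changed no subunit median by more than its spread between libraries.

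**Figure D5:**
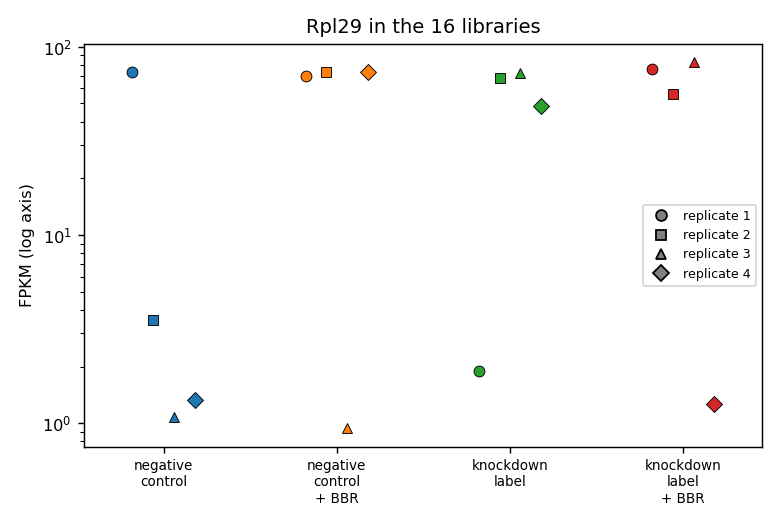
FPKM of Rpl29 (vertical axis, log scale) in each of the 16 libraries by group. 6 libraries lie between 0.940 and 3.56 FPKM and 10 between 48.7 and 82.7 FPKM, with no library between, and each group holds both levels.

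The median spread of the members, Rpl29 included, was about that of all tested genes at their level. The median SD of log2 CPM over the 16 libraries was 0.301 for the 77 genes, 0.376 for all genes tested and 0.302 for 1250 tested genes at the same level, members among them. The most even in the large subunit were Rpl8, near the peptidyl transferase centre, at 0.13, Rpl13 at 0.18 and Rpl18 at 0.19. In the small subunit they were Rpsa at 0.15, Rps6 at 0.18 and Rps19 at 0.19. The widest in the small subunit were Rps20 at 0.51, Rps25, used in initiation at viral internal entry sites, at 0.48, and Rps27a at 0.43. Rpl8 was at 175 ± 10.9 FPKM in negative controls, 167 ± 14.0 with BBR, 171 ± 30.9 under the knockdown label and 166 ± 12.4 with both (mean ± SD, n = 4).

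Other genes of the pathway were counted by role, beside the ribosomal proteins. At an unadjusted p under 0.05, 8.33% of all genes were higher and 6.45% lower under the knockdown label, and a list's count near these shares is no result about the list. In the comparison of the knockdown label without BBR, 30 of 35 translation initiation factors were fitted lower (median -0.18, with 1 higher and 2 lower at an unadjusted p under 0.05), and 8 of 9 elongation and termination factors (median -0.26, 1 lower). Both medians were below 0 where those of the ribosomal proteins were above it, and the difference between the lists was not tested. The initiation factors nearest the threshold were Eif5b, which joins the subunits, at 0.71 and Eif2s3x, a subunit of the factor that brings the initiator tRNA, at -0.71. Of 9 other transcripts with a known TOP start, 6 were lower (median -0.13, 2 lower at an unadjusted p under 0.05, Npm1 at -0.66 and Nap1l1 at -0.50). None of the genes in any list passed an adjusted p of 0.05 in the edgeR quasi-likelihood fit in any of the 6 comparisons.

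Of 39 tested ribosome biogenesis genes, 20 were fitted higher (median 0.01), 5 of them at an unadjusted p under 0.05, led by the nucleolar proteins Nop56 at 0.75 and Wdr43 at 0.43. Of 19 subunits and transcription factors of RNA polymerases I and III, which make ribosomal RNA, 11 were higher (median 0.05, 4 higher and 1 lower at an unadjusted p under 0.05), and the 2 of smallest p were the polymerase I factors Taf1a at 0.71 and Ubtf at -0.65. Of 21 genes of the mTORC1 pathway and the S6 kinases, 14 were higher (median 0.13, 3 higher and 1 lower), among them Rps6kb2, an S6 kinase, at 0.69 and Akt1s1, an mTORC1 inhibitor, at 0.80. The integrated stress response had 7 of 10 higher (median 0.18, none at an unadjusted p under 0.05). The genes around p53 in the 5S particle checkpoint, p53 itself, its regulators and its targets, had 4 of 9 higher (median -0.09), 2 of them at an unadjusted p under 0.05, Bax at 0.74 and Mdm4 at 0.88. Import factors and chaperones of ribosomal proteins had 6 of 12 higher (median -0.02), and the 6 ribosomal fusion and variant genes outside the naming rule had 4 higher (median 0.02).

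For BBR in the libraries labelled knockdown, 25 of 35 initiation factors and 7 of 9 elongation and termination factors were fitted higher, with medians of 0.08 and 0.14, again on the other side of 0 from the ribosomal proteins. In negative controls BBR went with 29 of 35 initiation factors fitted lower (median -0.08), and all 9 of these genes around p53 were fitted higher (median 0.28), none at an unadjusted p under 0.05. Fau, the fusion gene of the small subunit protein Rps30, averaged 214 FPKM in negative controls and 207 FPKM under the knockdown label. Rack1, the scaffold protein of the small subunit, averaged 40.03 and 38.5 FPKM.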

How the data were processed

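Poly(A) RNA of 16 liver libraries was sequenced as strand-marked 150-base pairs, per the labels' protocols. The authors deposited 1 table with read counts and FPKM per gene; the submitters' processing notes name cutadapt 1.9, HISAT2 2.0.4, StringTie 1.3.4d, edgeR, DESeq2 and mm10, without their roles. The counting tool and strand setting are not given in the sources used here. The deposited counts were tested with edgeR 4.0.16 (R 4.3.3): TMM factors, a quasi-likelihood fit of 4 group means on all 16 libraries, genes with at least 1 FPKM in at least 4 libraries, two-sided, Benjamini-Hochberg adjustment over 10846 genes, threshold 0.05. Intervals are 95% intervals of the fit. The code was tested on simulated data. Alternatives were other scaling, filters, limma 3.58.1, DESeq2 1.42.0, library weights, a replicate block, added pseudogene counts and left-out libraries, with leaving out Rpl29 chosen after seeing the data. Sequence stretches and lengths came from GENCODE M21, promoters from RefSeq.

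Named genes are those chosen by role, the 4 genes per subunit with the smallest p in each comparison, the 3 highest and 3 lowest by mean FPKM and the 3 widest and 3 narrowest by SD per subunit; Rpl29, Rpl15, Rps28 and the non-overlapping genes were named after their values were seen, as were others given as part of a count. Some genes that the rule names are not reported here. The members and the lists were chosen with earlier results of these data known. Marker lists covered hepatocytes, Kupffer cells and macrophages, neutrophils, B and plasma cells, T and NK cells, sinusoidal endothelium, stellate cells, red cells, cholangiocytes and proliferation.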

Additional observations from a re-analysis of the deposited data

Results flagged for a closer look

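Shares, the subunit ratio and genes chosen by role, p, level or spread were examined in 92 groups of 4 libraries. Of these, 12 had a library that stood further from the other 3 than a Dixon test allows. Chance alone flags about 1 in 20 independent groups. These groups share libraries, and Rpl29 was included after its values were seen, so the 12 cannot be set against that rate. In negative control 4, the small subunit share of counts was 0.639%, Rpl36 was at 618 FPKM, Rpl11 at 98.6 FPKM and Rps27l at 239 FPKM, each above the other 3 negative controls. In knockdown library 4 the mitochondrial share was 35.4%. Rpl41 was at 147 FPKM in negative control 2, below the others of its group, and at 155 FPKM in negative control with BBR 4, above them. Rpl27 was high in negative control with BBR 3, at 136 FPKM. Rpl29 was high in negative control 1, at 73.5 FPKM, and low in negative control with BBR 3, at 0.940 FPKM. Rps6 was at 161 FPKM in negative control with BBR 4 and Rpsa at 117 FPKM in library 1 labelled knockdown with BBR. No cause was tested for any of these.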

How the results depend on the processing

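In the knockdown comparison without BBR, DESeq2 called 2 of the 77 genes, Rpl35 (adjusted p 0.0441) and Rpl27 (0.0493), where 0.968% of all genes were called. Leaving out knockdown library 2 gave 6, among them Rpl17, Rpl19, Rpl27, Rpl35 and Rpl36, where 5.74% of all genes were called by edgeR. Over all left-out libraries this count was 0 to 6, and it was 0 to 0 in each of the other 5 comparisons. In those 5 the same fits called 0 or 1 of all genes, except 38 of 10811 for BBR under the label without knockdown library 2. The counts of 0 are therefore no result about the members. The cause was not tested. The interaction medians, -0.28 and -0.25 in the count fit, were -0.082 and -0.015 by limma on log2(FPKM + 1) and -0.083 and -0.0104 on log2(FPKM + 0.1), where the all-gene median was 0.14 and 0.18. With 1 library left out, large and small subunit medians ranged from 0.10 to 0.29 and 0.06 to 0.34 (knockdown label), 0.01 to 0.18 and -0.03 to 0.14 (BBR in negative controls), -0.24 to -0.09 and -0.33 to -0.04 (BBR under the label), -0.14 to -0.00 and -0.11 to 0.06 (label under BBR), -0.04 to 0.07 and -0.05 to 0.08 (both), and -0.39 to -0.19 and -0.41 to -0.14 (interaction). Genes higher at an unadjusted p under 0.05 for the knockdown label numbered 32 with library weights (all genes 10.1%), 24 with a filter of 5 FPKM (all genes 11.1%) and 4 by limma on log2(FPKM + 1) (all genes 3.71%). No log2 difference of the genes leading by p changed sign in any setting, but subunit medians did. On log2(FPKM + 1), the large subunit median for the knockdown label was -0.02, against 0.15 in the count fit. The small subunit median for BBR under the label was 0.01 there, against -0.18.

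Of 24 same-numbered pairs of libraries, 4 had a correlation of deviations above 0.1 (range -0.17 to 0.21). Pairs with different numbers were not compared, so whether the replicate numbers pair the libraries is not settled. With the replicate block no gene of the 77 was called in any of the 6 comparisons (0), and 10 were higher at an unadjusted p under 0.05 for the knockdown label (all genes 7.5%), with medians of 0.11 and 0.17 (all genes 0.01). Depth limits what can be said of Rpl3l, Rpl39l and Rpl10l, with 0 counts in 6, 15 and 16 libraries. Other limits are the 4 libraries per group, reads shared with pseudogenes, and single libraries.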

Other observations

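The remaining marker lists gave these levels, whose part in the ribosomal protein values was not tested. The 8 B and plasma cell markers summed to 224 FPKM in knockdown library 3, which was also highest for the ribosomal protein share and for the neutrophil and macrophage markers, where the group's median was 37.8 FPKM against 20.7 FPKM in negative controls. T and NK cell markers summed to at most 9.04 FPKM, cholangiocyte markers to at most 3.94 FPKM and proliferation markers to at most 1.24 FPKM in any library. The group medians were 17.4 to 21.9 FPKM for sinusoidal endothelial markers, 12.5 to 16.2 FPKM for stellate cell markers and 217 to 493 FPKM for red cell markers. The red cell sum was 995 FPKM in knockdown library 4, against 116 to 292 FPKM in the other 3 libraries of its group, and the highest sum of all was 1084 FPKM in library 1 labelled knockdown with BBR.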
